A study of Mus musculus with 10 samples.

Results

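The genes described here encode proteins of DNA replication, chromosome segregation and cell division, and they were gathered around Cenpf, a large protein of the kinetochore. The list held 35 gene symbols. Each gene was represented by the probe set with the highest mean over the 10 arrays among those annotated to that gene alone. By this rule 34 of the 35 genes were measured, out of 18193 genes in all, and Ccnb1, whose probe sets carry no single symbol, was not analysed here. Cenpf was known from earlier results of these data to be higher in the mutant hearts, so its own values are given as a description. The question was whether other genes of dividing cells differed in the same way.

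Hearts came from male SV129 mice 32 weeks old that either lacked the atypical protein kinase C isoform PKCz (PKCz -/-, called KO) or were wild-type littermates (WT). Osmotic minipumps under the skin delivered angiotensin II (AngII), a peptide that constricts vessels and leads to cardiac hypertrophy, over 14 days at 432 µg/kg daily. Controls are called PBS after the titles and the design text, although the source label calls them not treated. There were 2 arrays of WT PBS, 3 of WT AngII, 3 of KO PBS and 2 of KO AngII, named below by group and title number. The sources used here do not state how the null allele was made or whether every array is a separate mouse. The p-values therefore measure the spread between arrays, which may be technical.

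A cell that divides first licenses its replication origins and copies its DNA, and then condenses, attaches and separates its chromosomes. Genes of origin licensing, DNA synthesis and nucleotide supply are mostly transcribed as cells enter S phase, under E2F factors. Many genes of mitosis are transcribed later, in G2, under complexes that bind CCAAT boxes and the cell cycle homology region (CHR) near the start of transcription. Cardiomyocytes of the adult heart rarely divide, and most division there takes place in fibroblasts, endothelial cells and leukocytes. Cenpf accumulates towards mitosis, when it sits at the nuclear envelope and then at the outer kinetochore, and it is degraded as mitosis ends. In whole hearts, a change in the number of dividing cells and a change in the RNA of each cell cannot be told apart.

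The Cenpf promoter is shown with those of 4 other members that mark or drive mitosis. The motifs were not used to choose the list. They are known features of mitotic genes, as said above, so a high share among the members is no independent result. The sequences are from RefSeq on build GRCm38.p6, run from 200 bases before to 20 bases after the annotated start, and all lie on the minus strand of the chromosome. They are printed in the direction of transcription. Capitals mark CCAAT boxes (CCAAT) and CHR elements (TTTGAA or TTCGAA). Both strands were searched, and a match on the other strand is in capitals as it reads on the printed one. No match overlapped another motif in these windows.
Cenpf, chr1:189688067-189688286: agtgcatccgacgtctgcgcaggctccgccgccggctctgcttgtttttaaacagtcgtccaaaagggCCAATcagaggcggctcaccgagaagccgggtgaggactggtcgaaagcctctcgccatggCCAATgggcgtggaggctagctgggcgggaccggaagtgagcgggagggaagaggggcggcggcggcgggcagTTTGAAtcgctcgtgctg
Mki67, chr7:135716360-135716579: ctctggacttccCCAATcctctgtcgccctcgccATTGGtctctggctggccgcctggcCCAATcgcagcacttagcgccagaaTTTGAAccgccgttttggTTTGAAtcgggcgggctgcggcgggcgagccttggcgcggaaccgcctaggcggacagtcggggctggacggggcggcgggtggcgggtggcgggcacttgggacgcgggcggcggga
Top2a, chr11:99024170-99024389: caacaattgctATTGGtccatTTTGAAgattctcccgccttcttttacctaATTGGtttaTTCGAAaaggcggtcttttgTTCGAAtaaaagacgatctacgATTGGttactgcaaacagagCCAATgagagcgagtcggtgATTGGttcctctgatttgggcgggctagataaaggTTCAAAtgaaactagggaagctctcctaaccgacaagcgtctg
Cdk1, chr10:69352893-69353112: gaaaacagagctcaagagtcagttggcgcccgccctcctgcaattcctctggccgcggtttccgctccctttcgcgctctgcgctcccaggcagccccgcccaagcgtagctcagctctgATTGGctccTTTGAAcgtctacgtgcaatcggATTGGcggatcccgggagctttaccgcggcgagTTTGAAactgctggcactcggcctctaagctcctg
Ccnb2, chr9:70421535-70421754: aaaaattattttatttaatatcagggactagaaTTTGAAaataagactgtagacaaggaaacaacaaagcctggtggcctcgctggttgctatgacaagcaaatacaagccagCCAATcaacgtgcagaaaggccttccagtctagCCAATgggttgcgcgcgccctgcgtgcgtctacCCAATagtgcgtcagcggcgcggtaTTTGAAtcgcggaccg
The Cenpf window held 2 CCAAT boxes and 1 CHR, the latter just inside the transcript, 3 bases from the start. The Mki67 window held 3 CCAAT boxes and 2 CHR elements, and the Top2a window 5 and 4. Over 300-base windows (250 before to 50 after the start), 29 of the 35 genes had a sequence in the RefSeq table. A CCAAT box was found in 25 of these 29, against 41.1% of 27025 genes, and a CHR in 17, against 21.7%. Both motifs were found together in 17 of the 29, against 8.6% of all genes. The 5 genes printed are all among those with both, while Birc5, Nusap1, Ccne1 and Tyms had neither. The letters describe these windows and show neither binding nor activity.

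The values are log2 expression from RMA, in which a difference of 1 is a 2-fold change. Array medians lay between 6.13 and 6.24, and 16 to 19 of the 34 genes lay below the median of their array, where RMA compresses differences. RNA spike-in controls split the arrays into a batch of low signal (KO PBS 4, KO AngII 3 and KO AngII 4, mean 6.90 to 7.08) and a batch of high signal (the other 7 arrays, 12.86 to 13.33). KO PBS is the only group with arrays in both, so under AngII genotype and batch cannot be told apart. With the batch as a block, the offset between the batches is therefore estimated from the KO PBS arrays alone (KO PBS 4 against KO PBS 2 and KO PBS 3). The 3′ minus 5′ signal of actin, a sign of RNA quality, split with the batch. It was 0.74 to 0.83 in the low-signal arrays and 0.92 to 1.70 in the others. Its part in the genotype differences was not tested. The library labelled WT AngII 2 stood apart from its group, with a mean deviation of fibroblast markers of 2.12 against -0.27 and -0.07 in WT AngII 3 and WT AngII 4. The 7 cardiomyocyte markers lay between 12.62 and 14.68 on every array. For the deleted gene, Prkcz, the brightest probe set read 5.70 to 5.87 in KO and 6.23 to 6.45 in WT (difference -0.53 ± 0.09, SE; adjusted p = 0.126), while the other 2 probe sets gave 0.10 and -0.09. The sources used here do not say whether any of them lies in the deleted part, and one outside it would check nothing.

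Cenpf was higher in KO than in WT on every array. It read 6.37 and 6.62 in WT PBS, 6.06, 6.09 and 6.60 in WT AngII, 8.34, 8.86 and 9.10 in KO PBS, and 7.49 and 7.57 in KO AngII. The genotypes did not overlap, and within KO the AngII arrays lay below all 3 PBS arrays. Group means were 6.49 ± 0.17 (SD, n = 2) in WT PBS, 6.25 ± 0.31 (n = 3) in WT AngII, 8.77 ± 0.39 (n = 3) in KO PBS and 7.53 ± 0.05 (n = 2) in KO AngII.

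In the limma fit over all 10 arrays and 45037 probe sets, KO minus WT averaged over treatment was 1.78 ± 0.16 (SE; 95% interval 1.42 to 2.13; adjusted p = 0.00161), a 3.42-fold difference. At an adjusted p under 0.05, 0.0444% of all probe sets were called in this comparison (0.0111% higher and 0.0333% lower), and Cenpf ranked 5 of 45037 by p. Under PBS the difference was 2.27 ± 0.23 (1.76 to 2.78; adjusted p = 0.0062), a 4.83-fold difference, where 0.0133% of probe sets were called, 0.00222% in this direction. Under AngII it was 1.28 ± 0.23 (0.77 to 1.79) and did not pass the test (adjusted p = 0.434), with 0.0111% of probe sets called. With the spike-in batch as a block, the averaged difference was 1.44 (adjusted p = 0.604), that under PBS 2.10 (0.0258) and that under AngII 0.77 (1). Within the high-signal batch alone, KO PBS 2 and KO PBS 3 gave a difference of 2.10 from WT PBS, which lost its call (adjusted p = 0.105). The call under PBS was also lost without WT PBS 3 (2.15, adjusted p = 0.0677) or without WT PBS 5 (2.39, adjusted p = 0.0716).

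The difference was carried by the brightest of 3 Cenpf probe sets. The second, annotated to the same source record, read 5.22 to 5.45 in WT and 5.24 to 5.55 in KO, and the genotypes overlapped. Its averaged difference was 0.11 ± 0.09 (adjusted p = 0.585). The third read 4.57 to 5.06 in WT and 4.68 to 5.08 in KO, with a difference of 0.17 ± 0.08 (adjusted p = 0.407). Both are dim. The sources used here do not say which part of the transcript each probe set covers. The mean of the 3 probe sets differed by 0.87 under PBS (adjusted p = 0.0523).

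**Figure D1:**
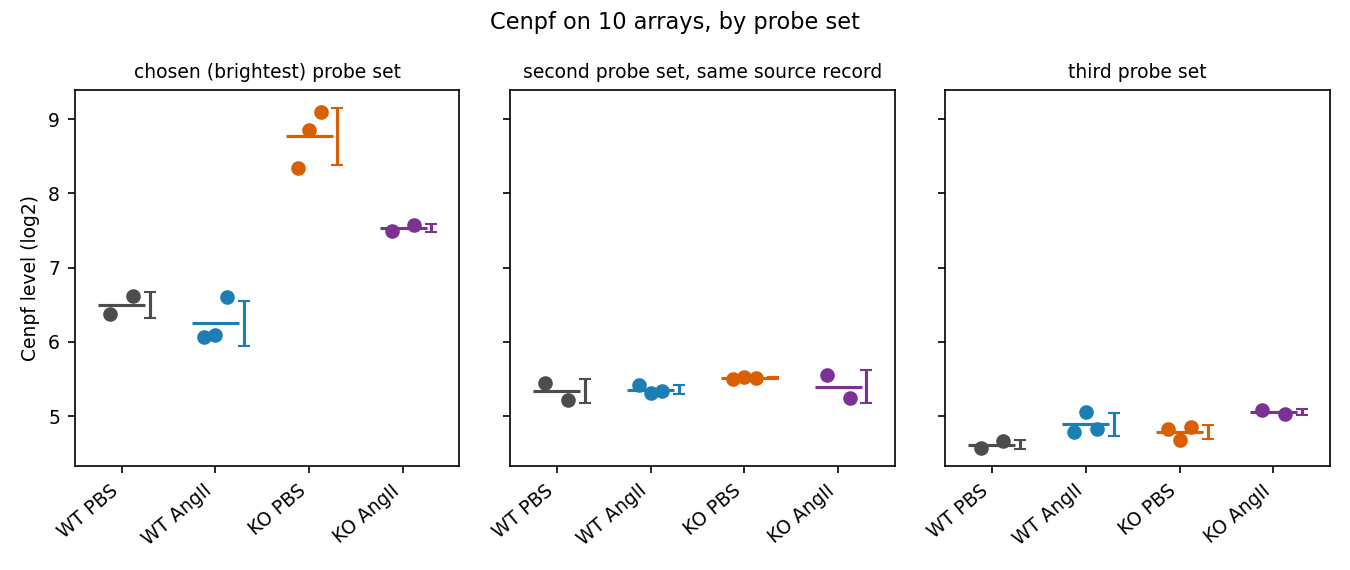
Level of Cenpf (log2, vertical axis) on each of the 10 arrays in the 4 groups, with 1 panel for each probe set; points are arrays, horizontal lines group means and brackets ±1 SD. The brightest probe set lies between 7.49 and 9.10 in KO and between 6.06 and 6.62 in WT, while the genotypes overlap in the other 2 panels.

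Genes next to Cenpf on chromosome 1 were examined to see whether the difference extended along the chromosome, while Prkcz lies on chromosome 4. The 5 measured genes on each side (Spata17, Gpatch2, Esrrg, Kcnk2 and A430027H14Rik, then Ptpn14, Smyd2, Prox1, Prox1os and Rps6kc1) differed between genotypes by -0.30 to 0.21 averaged over treatment, and none was called. In that comparison the lowest unadjusted p among them was 0.0591, for Spata17 (0.21 ± 0.10). Under PBS, Ptpn14, a tyrosine phosphatase gene, differed by 0.38 ± 0.15 (unadjusted p = 0.0301, adjusted p = 0.753). Under AngII, Kcnk2, a potassium channel gene, differed by -0.53 ± 0.22 (unadjusted p = 0.031, adjusted p = 0.734).

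No other measured cell cycle gene was called between the genotypes. Of the 33 genes other than Cenpf, 0 passed limma at an adjusted p under 0.05 in the averaged comparison, and 3 had an unadjusted p under 0.05 (2 higher, Kif20a and Tyms, and 1 lower, Cenpa). Of all probe sets, 12.4% had such a p, 5.86% higher and 6.54% lower. Their differences ran from -0.46 to 0.33 with a median of 0.054, against 0.005 over all 18193 genes. All 33 intervals lay within 1 log2 unit of 0, so a difference in probe set signal as large as that of Cenpf lay outside each of them. For dim probe sets, where RMA compresses differences, such an interval cannot exclude a larger change in RNA. The dimmer Cenpf probe sets described above also gave small differences. For 30 genes the interval stayed within 0.5, the exceptions being Cenpa, Ccne1 and Mcm7. When arrays were weighted by their quality, 3.47% of all probe sets were called, and Kif20a (adjusted p = 0.0178) and Cenpa (adjusted p = 0.0249) were among them. Under PBS the median was 0.099 (all genes -0.003) and the range -0.57 to 0.49, with Kif20a, Tyms and Cenpa at an unadjusted p under 0.05, against 6.29% of all probe sets (2.72% higher and 3.58% lower). That median was 0.022 without WT PBS 5, and 0.046 without KO PBS 4 or with the batch as a block. Under AngII the median was 0.006 (all genes 0.004) and the range -0.45 to 0.27, with 0 genes at an unadjusted p under 0.05, against 6.51% of all probe sets (3.22% higher and 3.28% lower). These counts are for the chosen probe sets. Over all 77 probe sets of the members, Cenpf included, 4 had such a p under AngII (5.19%), all higher. Under PBS 4 were higher and 1 lower (6.49%), and averaged over treatment 6 were higher and 2 lower (10.4%).

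Markers of other cell types moved with genotype in places, and their part in these values was not tested. All 6 macrophage markers were lower in KO (median -0.369) and so were all 6 markers of smooth muscle and pericytes (median -0.348), with no gene called among either. The mean deviation of the macrophage markers ran from -0.36 to -0.03 in KO and from -0.13 to 1.0 in WT, the highest value being WT AngII 2. That of the smooth muscle markers ran from -0.51 to 0.01 in KO and from -0.12 to 0.85 in WT. For the 7 cardiomyocyte markers the median difference was -0.002, for the 7 fibroblast markers -0.206, for the 6 endothelial markers -0.137, for the 5 measured lymphocyte markers -0.015 and for the 3 measured erythroid markers 0.207.

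**Figure D2:**
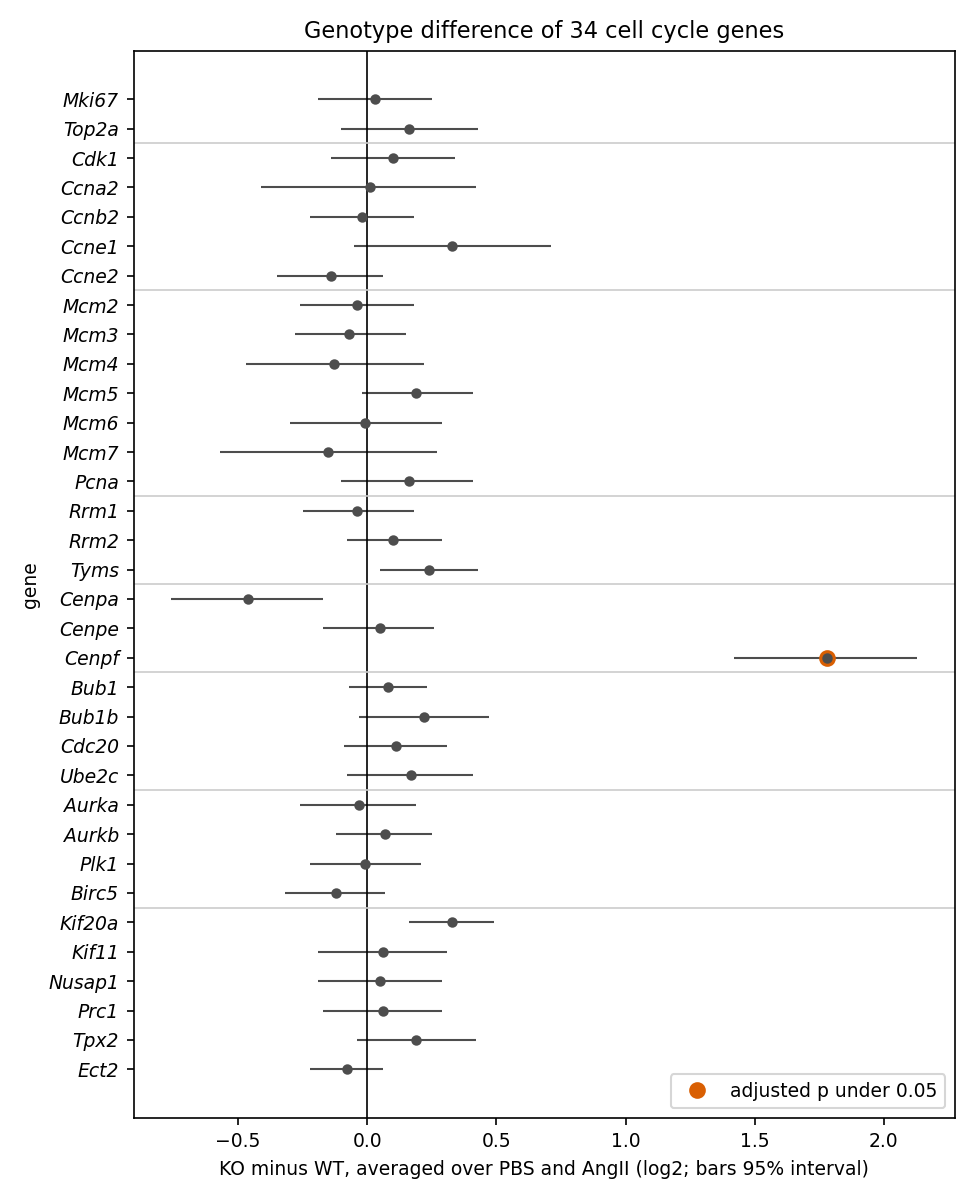
KO minus WT averaged over PBS and AngII (log2, horizontal axis) for the 34 measured genes grouped by role; points are fitted differences and bars 95% intervals. Cenpf at 1.78 is the only gene with an adjusted p under 0.05, and the other 33 lie between -0.46 and 0.33.

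The 2 general markers of proliferation did not separate the genotypes. Mki67, which encodes the Ki-67 antigen that coats mitotic chromosomes, read 5.76 and 5.99 in WT PBS, 6.05, 6.03 and 6.18 in WT AngII, 6.06, 5.95 and 6.10 in KO PBS, and 5.84 and 6.15 in KO AngII. KO and WT overlapped, and the averaged difference was 0.03 ± 0.10. Top2a, the topoisomerase that untangles sister chromatids, read 5.73 and 5.99 in WT PBS, 5.67, 6.19 and 5.90 in WT AngII, 6.23, 5.89 and 6.04 in KO PBS, and 6.01 and 6.10 in KO AngII. Its difference was 0.16 ± 0.12, with WT and KO arrays again overlapping.

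Among the cyclins and their kinase, the averaged differences had a median of 0.007 (5 genes, none called). Cdk1, the kinase that starts mitosis, read 6.02 and 6.17 in WT PBS, 6.67, 6.42 and 6.47 in WT AngII, 6.42, 6.17 and 6.57 in KO PBS, and 6.34 and 6.51 in KO AngII. The WT PBS arrays were the lowest, level with KO PBS 3, and the genotype difference was 0.10 ± 0.11. Ccnb2, a B-type cyclin that activates Cdk1, differed by -0.02 ± 0.09, and Ccna2, the cyclin of S phase and G2, by 0.01 ± 0.19. For Ccna2, KO PBS 3 stood far below the other arrays at 5.38, against 5.85 to 6.52. Of the E-type cyclins that drive entry into S phase, Ccne1 differed by 0.33 ± 0.17 (interval -0.05 to 0.71) and Ccne2 by -0.14 ± 0.10.

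The 7 replication genes had a median genotype difference of -0.041 and none was called. Mcm2, a subunit of the MCM helicase that opens DNA at origins, read 7.29 and 7.02 in WT PBS, 7.30, 7.22 and 7.31 in WT AngII, 7.26, 7.26 and 7.34 in KO PBS, and 7.03 and 7.10 in KO AngII. It varied by little on any array, and its difference was -0.04 ± 0.10. The other helicase subunits ran from -0.15 (Mcm7) to 0.19 (Mcm5). Pcna, the sliding clamp of the replicative polymerases, differed by 0.16 ± 0.12. The library WT AngII 2 was the highest of all arrays for this group (mean deviation 0.232), with Mcm4 at 7.69 against 6.80 to 7.25 on the other 9 arrays.

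Of the genes for nucleotide supply, Rrm2, the regulated subunit of ribonucleotide reductase, read 5.46 and 5.48 in WT PBS, 5.51, 5.70 and 5.53 in WT AngII, 5.61, 5.47 and 5.66 in KO PBS, and 5.70 and 5.65 in KO AngII. The genotypes overlapped (0.10 ± 0.08). Rrm1, the other subunit, differed by -0.04 ± 0.10. Tyms, thymidylate synthase, is given here because it was 1 of the 3 genes with an unadjusted p under 0.05, a choice made after its values were seen. It read 4.59 and 4.50 in WT PBS, 4.59, 4.79 and 4.76 in WT AngII, 4.73, 4.82 and 5.10 in KO PBS, and 4.90 and 4.81 in KO AngII. Within each treatment the KO arrays lay above the WT arrays, while KO PBS and WT AngII overlapped. Its averaged difference was 0.24 ± 0.09 (adjusted p = 0.349), or 0.02 with the batch as a block. The other Tyms probe sets, all dim, did not separate the genotypes. The one annotated to the same source record had means of 4.59 in WT and 4.58 in KO. The rest had means of 4.73 and 4.31 in WT and of 4.76 and 4.34 in KO.

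The other centromere and kinetochore genes went different ways from Cenpf. Cenpa, the histone H3 variant that marks the centromere, read 9.20 and 9.05 in WT PBS, 8.86, 8.39 and 8.59 in WT AngII, 8.38, 8.89 and 8.40 in KO PBS, and 8.24 and 8.28 in KO AngII. The WT PBS arrays were the highest and the KO AngII arrays the lowest, while WT AngII and KO PBS overlapped. Its averaged difference was -0.46 ± 0.14 (adjusted p = 0.300), and its other 2 probe sets gave 0.15 and 0.06. Cenpe, the kinesin that carries chromosomes to the spindle equator, read 5.57 and 5.48 in WT PBS, 5.50, 5.79 and 5.67 in WT AngII, 5.50, 5.26 and 5.63 in KO PBS, and 5.82 and 5.80 in KO AngII. Its KO AngII arrays were the highest of the 10 and the genotype difference was 0.05 ± 0.10.

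All 4 genes of the spindle checkpoint and of anaphase had averaged differences above 0, between 0.08 and 0.22, and none was called. Bub1, a checkpoint kinase, read 4.43 and 4.39 in WT PBS, 4.21, 4.39 and 4.46 in WT AngII, 4.45, 4.32 and 4.46 in KO PBS, and 4.52 and 4.53 in KO AngII, a difference of 0.08 ± 0.07. All 10 values of this dim probe set lay between 4.21 and 4.53. Bub1b, which encodes the checkpoint protein BubR1, differed by 0.22 ± 0.11. Cdc20, the activator of the anaphase-promoting complex, differed by 0.11 ± 0.09, and Ube2c, its ubiquitin-conjugating enzyme, by 0.17 ± 0.11.

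The mitotic kinases and their partner survivin had a median difference of -0.021. Aurkb, the kinase of the chromosomal passenger complex, read 4.73 and 4.68 in WT PBS, 4.38, 4.72 and 4.36 in WT AngII, 4.60, 4.68 and 4.79 in KO PBS, and 4.61 and 4.66 in KO AngII. The arrays of the genotypes overlapped and the difference was 0.07 ± 0.08. Birc5, which encodes survivin, differed by -0.12 ± 0.09 and Plk1, a kinase of centrosomes and kinetochores, by -0.01 ± 0.10. Aurka, a kinase of the spindle poles, differed by -0.03 ± 0.10. A dimmer Aurka probe set, named after its values were seen, read 4.39 to 4.94 in WT and 5.05 to 5.21 in KO without overlap, and its difference of 0.44 ± 0.11 did not pass the test (adjusted p = 0.257).

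Of the 6 spindle and cytokinesis genes, Kif20a stood closest to a call, on a dim probe set (mean 4.47, with array medians of 6.13 to 6.24). This kinesin of the central spindle read 4.03 and 4.08 in WT PBS, 4.49, 4.68 and 4.43 in WT AngII, 4.56, 4.47 and 4.60 in KO PBS, and 4.60 and 4.80 in KO AngII. The pattern was not that of Cenpf: the WT PBS arrays lay below all 8 others, which overlapped across genotype. The averaged difference was 0.33 ± 0.07 (1.25-fold; adjusted p = 0.237) and that under PBS 0.49 ± 0.11 (adjusted p = 0.393). Kif11, the motor that pushes spindle poles apart, read 5.67 and 5.40 in WT PBS, 5.21, 5.59 and 5.27 in WT AngII, 5.57, 5.18 and 5.56 in KO PBS, and 5.54 and 5.62 in KO AngII, and differed by 0.06 ± 0.11. All 4 groups overlapped. Tpx2, a spindle assembly factor, read 6.29 and 6.29 in WT PBS, 6.26, 6.38 and 6.56 in WT AngII, 6.44, 6.25 and 6.54 in KO PBS, and 6.77 and 6.56 in KO AngII. Its highest array was KO AngII 3, and it differed by 0.19 ± 0.11 on average and by 0.27 ± 0.15 under AngII (adjusted p = 0.734). Nusap1, Prc1 and Ect2, which act on spindle microtubules and in cytokinesis, differed by 0.05, 0.06 and -0.08.

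**Figure D3:**
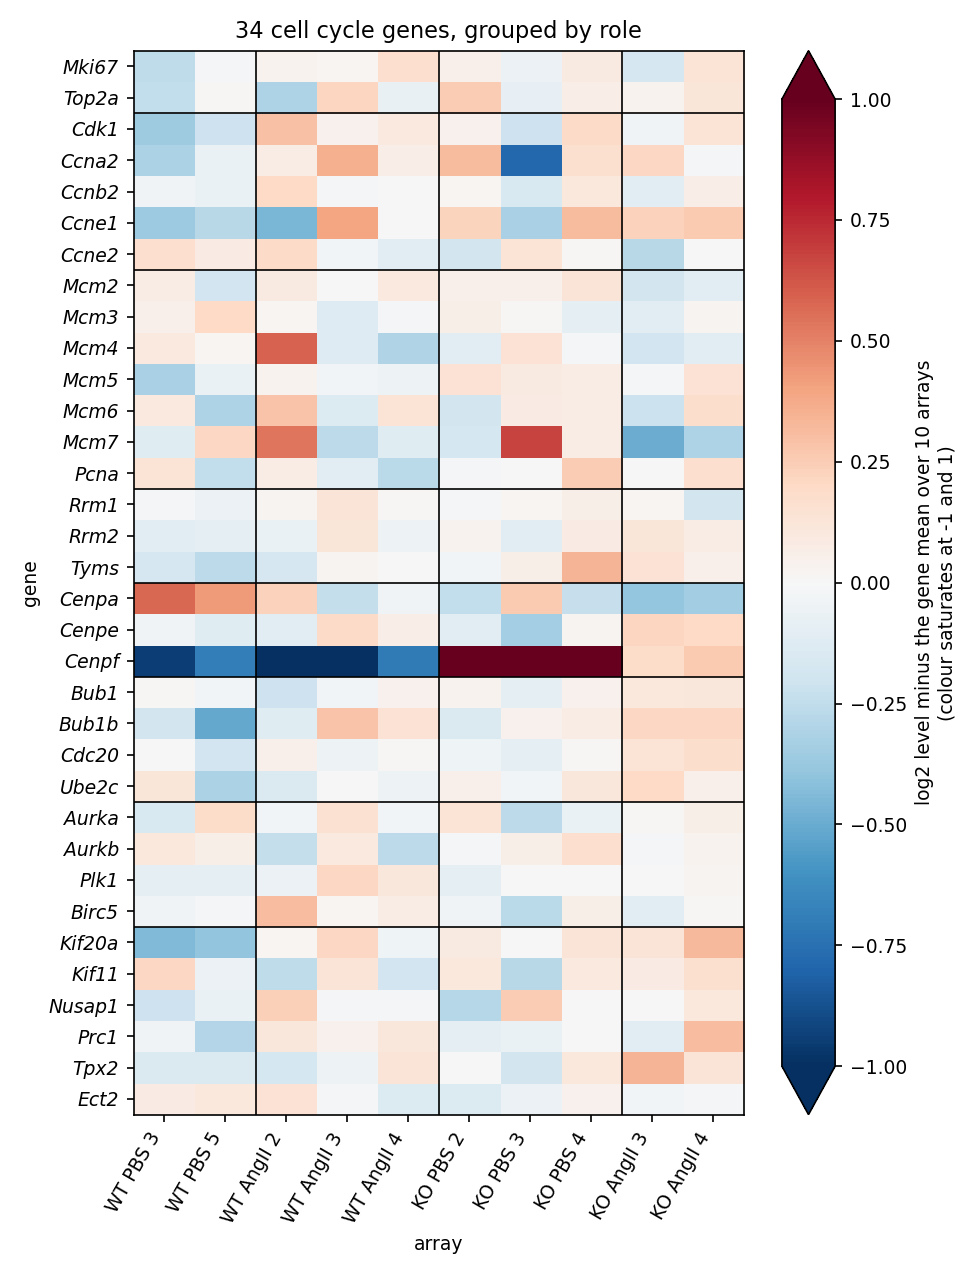
Log2 level minus the mean of each gene over 10 arrays (colour, saturating at -1 and 1) for the 34 genes in rows, grouped by role, and the 10 arrays in columns, ordered by group. Only the row of Cenpf splits by genotype on every array, and single cells away from 0 such as Ccna2 on KO PBS 3 or Mcm4 on WT AngII 2 belong to single arrays.

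Arrays were also compared without a model. With 5 KO and 5 WT arrays, Cenpf was the only gene of the 34 whose genotypes did not overlap, and 0.822% of all probe sets lay entirely higher in KO and 0.613% entirely lower. Under PBS, 6 genes lay entirely higher in KO (17.6%, against 13.2% of all probe sets) and 2 entirely lower (5.88%, against 10.8%). Under AngII, 7 lay entirely higher (20.6%, against 16% of all) and 4 entirely lower (11.8%, against 11.2%). Tyms and Cenpf were entirely higher, and Cenpa entirely lower, under both treatments.

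AngII raised no cell cycle gene past the test in WT hearts. In the comparison of WT AngII with WT PBS, 0 of the 34 genes and 0% of all probe sets passed limma at an adjusted p under 0.05, and 4 genes had an unadjusted p under 0.05 (3 higher, Kif20a, Bub1b and Cdk1, and 1 lower, Cenpa). Of all probe sets, 5.23% had such a p, 1.71% higher and 3.52% lower. The 33 genes other than Cenpf had a median difference of 0.110, with 24 above 0, where the median of all genes was -0.004. By role the medians were 0.304 for the cyclins and Cdk1, 0.157 for spindle and cytokinesis, 0.136 for the proliferation markers, 0.110 for nucleotide synthesis, 0.089 for the mitotic kinases and survivin, 0.063 for the checkpoint and anaphase, 0.008 for replication and -0.245 for the centromere and kinetochore (Cenpf included). The smallest p-values belonged to Kif20a (0.48 ± 0.11, adjusted p = 0.859), Bub1b (0.45 ± 0.16, 0.930) and Cdk1 (0.43 ± 0.16, 0.930). Bub1b read 6.12 and 5.79 in WT PBS, 6.18, 6.59 and 6.45 in WT AngII, 6.16, 6.35 and 6.38 in KO PBS, and 6.51 and 6.51 in KO AngII. As for Kif20a, the WT PBS arrays of this Bub1b probe set were the lowest of the 10. Its other probe sets, which are dimmer, did not rise with AngII in WT. The one annotated to the same source record had means of 5.04 in WT PBS and 5.03 in WT AngII. Another had means of 5.50 and 5.45. All AngII differences in WT share the WT PBS arrays with the genotype comparison under PBS. Over all 77 probe sets of the members the median AngII difference in WT was 0.06. The 136 further cell cycle genes described below had a median of 0.001 in this comparison, with 69 genes above 0 and 67 below. Their lists differed. By list the medians were 0.101 for spindle and cytokinesis, 0.068 for kinetochore and centromere, 0.052 for replication and 0.047 for transcription factors. They were 0.025 for G1 cyclins and kinases, -0.013 for chromosome structure and -0.036 for inhibitors. For checkpoint and anaphase the median was -0.054, and for partners of the Cenpf protein -0.193.

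In this comparison 13 of the 34 genes lay entirely higher in WT AngII (38.2%, against 8.4% of all probe sets) and 2 entirely lower, Mcm3 and Cenpa (5.88%, against 11.3%). The 13 were Mki67, Cdk1, Ccna2, Ccnb2, Mcm5, Rrm1, Rrm2, Bub1b, Plk1, Birc5, Kif20a, Nusap1 and Prc1. Some of them have a second, dimmer probe set annotated to the same source record. Its mean rose from WT PBS to WT AngII for Ccna2 (5.77 and 6.06) and Rrm1 (6.51 and 6.97). It fell for Rrm2 (4.73 and 4.46). For Nusap1 (4.54 and 4.53) and Prc1 (4.71 and 4.72) it stayed level, as for Bub1b above. Without WT AngII 2, the library that stood apart, 17 of the 34 genes lay entirely higher (50%, against 25.2% of all). There were 19 without WT PBS 3 (55.9%, against 22.2%) and 14 without WT PBS 5 (41.2%, against 18.5%). There were 16 without WT AngII 3 (47.1%, against 13.6%) and 13 without WT AngII 4 (38.2%, against 11.3%). Over these 5 omissions 3 to 6 genes lay entirely lower (8.82 to 17.6%, against 16.3 to 24.1% of all probe sets). The differences are small: the mean deviation of the 33 genes from their own means was -0.058 and -0.086 in WT PBS and 0.038, 0.043 and -0.015 in WT AngII. Fibroblast markers moved in the same comparison, all 7 being higher in WT AngII (median 1.345), with list means of -0.70 and -0.19 in WT PBS and 2.12, -0.27 and -0.07 in WT AngII. Of the 6 macrophage markers 5 were higher (median 0.436), with list means of -0.13 and 0.19 in WT PBS and 1.0, -0.02 and 0.04 in WT AngII. Signs of RNA quality moved as well. The 18S ribosomal RNA signal was 9.39 and 8.18 in WT PBS, the 2 highest of the 10 arrays, and 7.70, 7.53 and 6.65 in WT AngII, without overlap. In KO PBS it was 8.07, 7.99 and 7.48, also below both WT PBS arrays. The 3′ minus 5′ signal of actin was 1.17 and 1.70 in WT PBS and 0.92, 1.33 and 1.01 in WT AngII, with overlap. The part of these cell types and of RNA quality in the values of the cell cycle genes was not tested.

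In KO hearts the largest AngII difference among the 34 genes was that of Cenpf, downwards. KO AngII minus KO PBS was -1.24 ± 0.23 (interval -1.74 to -0.73; unadjusted p = 1.94e-04; adjusted p = 0.892), where no probe set was called and 4.57% had an unadjusted p under 0.05 (2.17% higher and 2.4% lower). In WT the difference was -0.24 ± 0.23. The test of the difference between the genotypes gave -0.99 ± 0.33 (unadjusted p = 0.0108; adjusted p = 1), so a genotype-dependent AngII effect on Cenpf did not pass. Both KO AngII arrays are in the low-signal batch, and the only KO PBS array of that batch, KO PBS 4, had the highest Cenpf of all arrays (9.10 against 7.49 and 7.57). With the batch as a block the difference was -1.57.

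The other 33 genes had a median AngII difference of 0.029 in KO (all genes -0.009), from -0.59 to 0.35, and only Cenpe had an unadjusted p under 0.05 (0.35 ± 0.14, adjusted p = 0.892). Mcm7 followed at -0.59 ± 0.27 (adjusted p = 0.892). It read 7.60 and 7.93 in WT PBS, 8.26, 7.46 and 7.60 in WT AngII, 7.55, 8.40 and 7.80 in KO PBS, and 7.23 and 7.42 in KO AngII. Its 2 highest values were single arrays of different groups, WT AngII 2 and KO PBS 3. The other Mcm7 probe sets fell by less, with means of 7.43, 7.50 and 7.21 in KO PBS. In KO AngII their means were 7.31, 7.27 and 6.96. In KO, 6 genes lay entirely higher with AngII (17.6%, against 13.7% of all probe sets) and 5 entirely lower (14.7%, against 10.8%). The difference between the genotypes in the AngII effect had a median of -0.122 over the 33 genes (all genes -0.005), with 12 above 0 and none called. Without KO AngII 3 this median was -0.031, without WT AngII 2 -0.056, without KO PBS 4 -0.061 and without WT AngII 3 -0.064. In this comparison 1.64% of all probe sets had an unadjusted p under 0.05 (1.15% higher and 0.482% lower). Kif20a stood at -0.32 ± 0.15 and Cdk1 at -0.38 ± 0.22 (adjusted p = 1 for both).

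**Figure D4:**
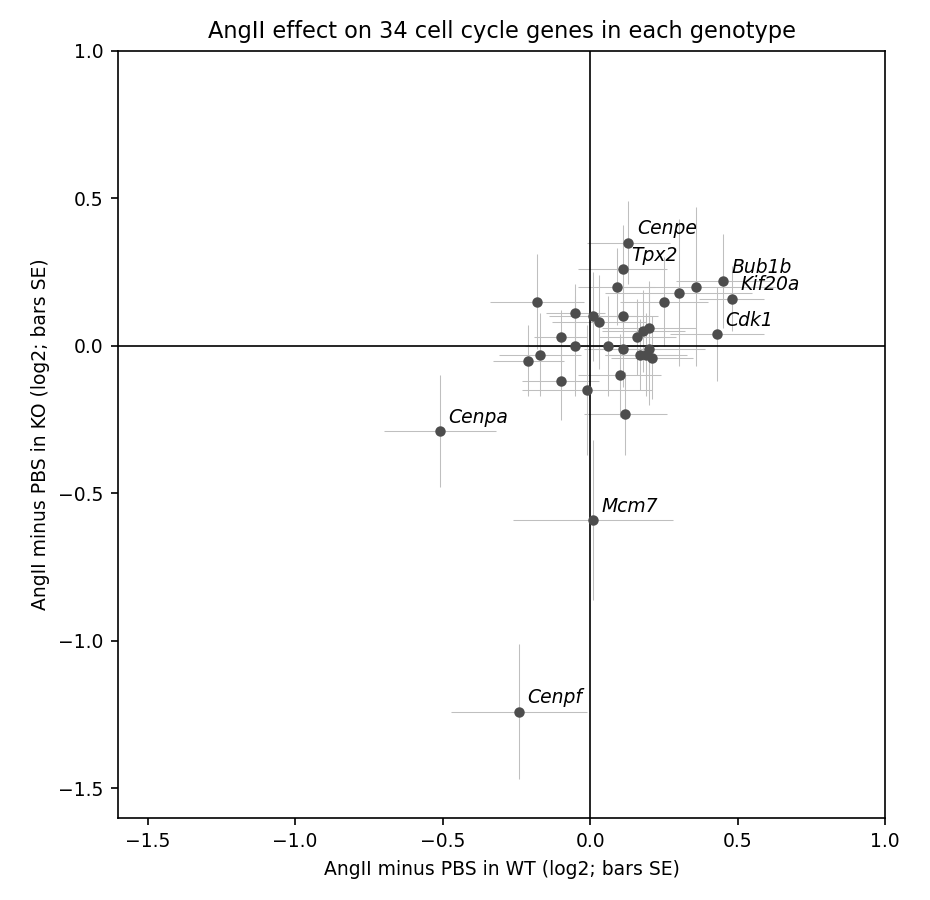
AngII minus PBS in WT (log2, horizontal axis) against AngII minus PBS in KO (log2, vertical axis) for the 34 genes; points are fitted differences and bars 1 SE. Cenpf lies at -0.24 and -1.24, apart from the other genes, which lie between -0.59 and 0.48 on both axes.

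Further genes of the cell cycle, 136 measured of 139 listed, also gave 0 calls in limma in any of the 6 comparisons. In the averaged genotype comparison 17 of the 136 had an unadjusted p under 0.05 (4 higher and 13 lower), against 12.4% of all probe sets, and the median difference was -0.001. The 29 further genes of the kinetochore and centromere, the structure that holds Cenpf, ran from -0.20 to 0.28 with a median of 0.044, and none had an unadjusted p under 0.05. The lists of checkpoint and anaphase, spindle and cytokinesis, chromosome structure, replication and transcription factors had medians of -0.007, 0.099, -0.007, 0.026 and 0.056. Among 9 genes whose proteins are known to bind Cenpf or act with it, 2 had an unadjusted p under 0.05, both lower. They were Rb1, the retinoblastoma protein (-0.31 ± 0.10, adjusted p = 0.333), and Pafah1b1, a dynein regulator (-0.32 ± 0.13, adjusted p = 0.375). The 2 smallest p-values of all 136 belonged to Myc, a transcription factor of cell growth (-0.48 ± 0.11, adjusted p = 0.237), and Cdc27, a subunit of the anaphase-promoting complex (-0.46 ± 0.13, adjusted p = 0.278).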

How the data were processed

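RNA of mouse hearts was measured on 10 single-colour Affymetrix arrays, assigned to 4 groups from the titles. The deposited table holds log2 expression values of 45101 probe sets. Per the submitters' processing notes the authors used RMA, which corrects background, equalises the arrays and summarises probes. The RMA version, the probe definitions and any genome build were not given in the sources used here. RMA draws on all arrays, so an unusual one can affect others, and it narrows the differences of dim probe sets. Precision is set by the number of arrays, which have no read depth.

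Tests covered 45037 probe sets, without 64 controls. Of these, 34945 carry 1 gene symbol, 932 several and 9160 none in the platform annotation, and 34741 symbols were updated through the RefSeq gene table. Group means were fitted with limma 3.58.1 (R 4.3.3; lmFit, eBayes with trend, two-sided) on all 10 arrays, with Benjamini-Hochberg adjustment over all probe sets and calls at an adjusted p under 0.05. The procedure was run on simulated data that held no batch and no outlying array. That run only required a small mean error of the fitted differences, so it does not show how the calls behave on these arrays. The members, the further gene lists and the batch were chosen with earlier results of these data known. Values on every array are given for Cenpf and for at least 1 gene of each role. They are also given for the 3 genes of smallest p in each comparison. Other probe sets are given for Cenpf and where they were called or differed from the chosen one by over 0.5. Those of Tyms, Bub1b, Mcm7, Ccna2, Rrm1, Rrm2, Nusap1 and Prc1 were added after their values were seen. Of the further lists, called genes and the 2 of smallest p are named, and other genes named are described as chosen after their values were seen.

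The alternatives were other scalings of the arrays, a filter on dim probe sets, other variance models, array weights, the mean of all probe sets of a gene, fits on the compared groups alone, the title number or the spike-in batch as a block, the high-signal batch alone, and leaving out each array. Title numbers gave no sign of a pairing, in a check that cannot exclude one. Alternatives for single named genes other than Cenpf and for medians were added after seeing the data.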

Additional observations from a re-analysis of the deposited data

How the results depend on the processing

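Over 33 results and 22 alternatives, 634 of 687 recomputed values stayed the same. This meant an equal count, the same direction and side of the threshold, or a median that moved by less than the spread between replicates. Most of the differences were not called in the reported fit, so they had no call to lose. The called Cenpf difference under PBS stayed the same in 17 of 22 alternatives and the averaged one in 18 of 20. In the averaged genotype comparison, array weights called 3 of the 34 genes (Cenpf, Kif20a and Cenpa), where 1562 probe sets (3.47%) were called in all, and the spike-in batch as a block called 0, both with all arrays and without WT AngII 2. Cenpf then stood at 1.44 (adjusted p = 0.604) and 1.39 (0.229). Leaving out each array gave 1.69 to 1.88, with Cenpf called each time. Under PBS the count fell from 1 to 0 with the mean of all probe sets (Cenpf 0.87, adjusted p = 0.0523) and within the high-signal batch (2.10, 0.105). Leaving out each array gave counts of 0 to 1 and Cenpf differences of 2.10 to 2.49. Under AngII, array weights called 1 gene, Cenpf (0.98, adjusted p = 0.0103), among 2911 probe sets (6.46%). The AngII difference of Cenpf in WT reversed to 0.05 with array weights and to 0.02 with the mean of all probe sets. The averaged genotype difference of Tyms reversed to -0.01 with the batch block without WT AngII 2. The difference of Cenpa under AngII reversed to 0.01 with the mean of all probe sets and to 0.00 with the batch block without WT AngII 2. The causes were not tested.

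Title numbers were checked as a pairing through deviations from the group means. The deviations of 10 same-number pairs correlated at -0.36 to 0.10, none over 0.1, against -0.31 to 0.31 for 27 other pairs. In groups of 2 or 3 arrays such deviations mirror one another, so the check cannot exclude a pairing. With the number as a replicate block, Cenpf under PBS was 2.41 (adjusted p = 0.0761) and 0 genes were called there. The median averaged genotype difference of the 33 other genes stayed between -0.03 and 0.084 over all alternatives, and their median AngII difference in WT between 0.072 and 0.128. Their median ran from 0.022 to 0.124 for genotype under PBS, from -0.094 to 0.076 for genotype under AngII and from -0.06 to 0.081 for AngII in KO. For the difference between the genotypes it ran from -0.149 to 0.036, the highest value being that with the title number as a replicate block. For 30 of the 33 genes the interval of the averaged difference lay within 0.5 of 0, and smaller differences cannot be judged with 2 or 3 arrays a group. Fits on the compared groups alone equal the reported fit for the averaged comparison and the difference between genotypes, and the high-signal batch holds no KO AngII array, so neither gave a value there.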

Other observations

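Among further regulators of the cell cycle, none was called in limma. A list of 11 genes held D-type cyclins, cyclin-dependent kinases, Cks subunits and Cdc25 phosphatases. Of these, 4 had an unadjusted p under 0.05 in the genotype comparison under AngII, against 6.51% of all probe sets. All 4 were lower, and the median of the 11 was -0.295. With the spike-in batch as a block the median was -0.064. The library WT AngII 2 stood apart here as well. It read 9.27 for Cdk6, against 8.01 and 7.94 in WT AngII 3 and WT AngII 4. For Cdc25c it went the other way, with 5.85 against 7.02 and 6.98. Under PBS 0 of the 11 had an unadjusted p under 0.05 (median -0.03), and in the test of the difference between the genotypes in the AngII effect 0 did (median -0.162, or 0.055 with the block). Averaged over treatment, Ccnd1, cyclin D1, differed by -0.45 ± 0.13 (adjusted p = 0.286; -0.14 with the block) and Ccnd2, cyclin D2, by -0.26 ± 0.09 (adjusted p = 0.337; -0.11 with the block). The 12 inhibitors had a median of -0.155, among them Rb1 and Meis1, a homeobox factor that restrains division of cardiomyocytes (-0.34 ± 0.11, adjusted p = 0.325). These genes were named after their values were seen.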
